A study of Homo sapiens with 6 samples.

Results

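The 10 genes described here encode the glucose transporter SLC2A1, 8 enzymes of glycolysis and lactate dehydrogenase A: SLC2A1, HK2, GPI, PFKP, ALDOA, TPI1, GAPDH, PGK1, ENO1 and LDHA. They were chosen by name, and every probe that the array files assign to one of these names was taken, 15 probes of 50586 with a value and 10 gene names of 36328. The signal is that of RNA recovered by cap immunoprecipitation, which enriches RNA with an m3G or m7G cap, from MOLT-4 cells, an established line from a human T-cell acute lymphoblastic leukaemia. One group of 3 arrays came from mock-transfected cells, which had received the empty vector, and the other group of 3 arrays from cells transfected to overexpress NUDT16, an RNA decapping enzyme. The recovered RNA was copied into cDNA, labelled with Cy3 and read on Agilent arrays in 1 colour. The labels do not say whether replicates were separate transfections, so p-values measure the spread between these samples, which may be technical. Input RNA was not analysed here. A difference in eluate signal therefore cannot be told apart from a difference in RNA abundance, and in bulk RNA fewer cells with a transcript cannot be told apart from less of it per cell.

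Glycolysis splits glucose into pyruvate in the cytosol and yields ATP without oxygen, and lactate dehydrogenase then reduces pyruvate to lactate, which restores the NAD+ that the pathway consumes. Leukaemic T cells, like other fast-dividing cells, take up much glucose and release lactate even where oxygen is present. The messenger RNAs of these enzymes are abundant, are made by RNA polymerase II and carry an m7G cap, so cap immunoprecipitation can recover them.

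Detection varied between arrays. Spots well above background made up 39.3% to 51.1% of 58717 spots on the mock arrays and 42.3%, 14.6% and 52.0% on NUDT16 replicates 1, 2 and 3, so NUDT16 replicate 2 stands apart, and no spot was saturated. Values are log2 processed intensity minus the array's 75th percentile over the 6582 probes well above background on all 6 arrays. That percentile was 7.80 on NUDT16 replicate 2 and 11.40 to 12.91 on the other arrays. NUDT16 replicate 2 was thus far dimmer before scaling, and every pair 2 difference rests on it. A value of 0 is the level of a fairly bright probe, and a difference of 1 is 2-fold. The arrays lie on 3 slides, each with the mock and the NUDT16 array of one replicate number, and the difference within such a pair is given beside each group difference. Of 18 markers of T lymphoblasts, 11 were well above background on all 6 arrays, CD3D and LCK among them. Of 14 markers of other cells 2 were, CD79A and KRT8, and 6 were on no array. Both NUDT16 probes were at background on all 6 arrays and do not check the labels. A probe named for the pseudogene NUDT16P1 was well above background on 3 NUDT16 arrays and 0 mock arrays, at a difference of 6.91. Another probe of that name was at background on all 6 arrays. Whether the first reads the introduced NUDT16 was not tested.

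The probe sequences of 4 genes are shown because the 2 LDHA probes carry the largest group difference, and because GAPDH, ALDOA and ENO1 have probes rich in G and C, which is taken up further on. They are 60 bases each, 5′ to 3′, as the array files give them, with hg19 positions from the same files.
LDHA, A_23_P47565, chr11:18428789-18428848: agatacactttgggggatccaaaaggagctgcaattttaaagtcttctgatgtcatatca
LDHA, A_32_P44568, chr9:14921817-14921876: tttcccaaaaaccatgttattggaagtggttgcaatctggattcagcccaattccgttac
GAPDH, A_23_P13899, chr12:6646918-6646977: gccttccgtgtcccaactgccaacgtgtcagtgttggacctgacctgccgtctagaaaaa
ALDOA, A_23_P88963, chr16:30081324-30081470: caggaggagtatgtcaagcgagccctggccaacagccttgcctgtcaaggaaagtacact
ENO1, A_23_P137391, chr1:8924054-8924113, minus strand: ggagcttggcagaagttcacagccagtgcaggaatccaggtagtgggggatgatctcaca
The ALDOA probe covers an interval of 147 positions with 60 bases, so the interval holds sequence that is not in the probe. The files name A_32_P44568 as LDHA, for the same transcript as the first probe, but place it on chromosome 9, minus strand, away from the chromosome 11 position of the other LDHA probe. Glycolytic genes have processed pseudogenes of closely similar sequence, and signal from such copies cannot be told apart from that of the named gene. Which exon a probe lies in was not analysed here.

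No member was called different between NUDT16 and mock cells by the test across all probes. In limma with Benjamini-Hochberg adjustment over 17765 probes, 0 of 10 members were called, against 0.00563% of all probes (1 probe, for the pseudogene NUDT16P1). At an unadjusted p under 0.05 in limma there were also 0 members, against 0.051% of 13734 genes, and in the fit that blocks on replicate number 0 members against 8.72%. On replicates 1 and 3 alone with the block, 3.45% of probes were called, 0.0675% higher and 3.38% lower in NUDT16. Among them were 0 members. Every member had the same standard error in that fit, 0.30. That fit rests on a variance pooled over probes, so its p values do not measure a gene's own spread. The median difference over the 10 members was 0.09, with 7 above 0 and 3 below, beside a median of -0.06 over all genes tested, of which 45.8% were above 0. These signs depend on scaling: without it all 10 members were below 0, with a median of -0.90 beside -1.06 over all genes. All 10 genes had a probe that could be tested, and 13 of their 15 probes could. For 9 genes the brightest probe, which stands for the gene, was well above background on all 6 arrays, and over the 5654 genes for which the same held the median was 0.18 and 60.4% were above 0. Standard errors of the members lay between 0.59 and 0.81 and every limma adjusted p was 0.999. With the block the standard errors were 0.30 to 0.47 and the adjusted p values 0.467 to 0.958. The groups overlapped for all 10 members, and groups without overlap were seen for 0.335% of all genes (higher in NUDT16) and 0.262% (lower).

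**Figure D1:**
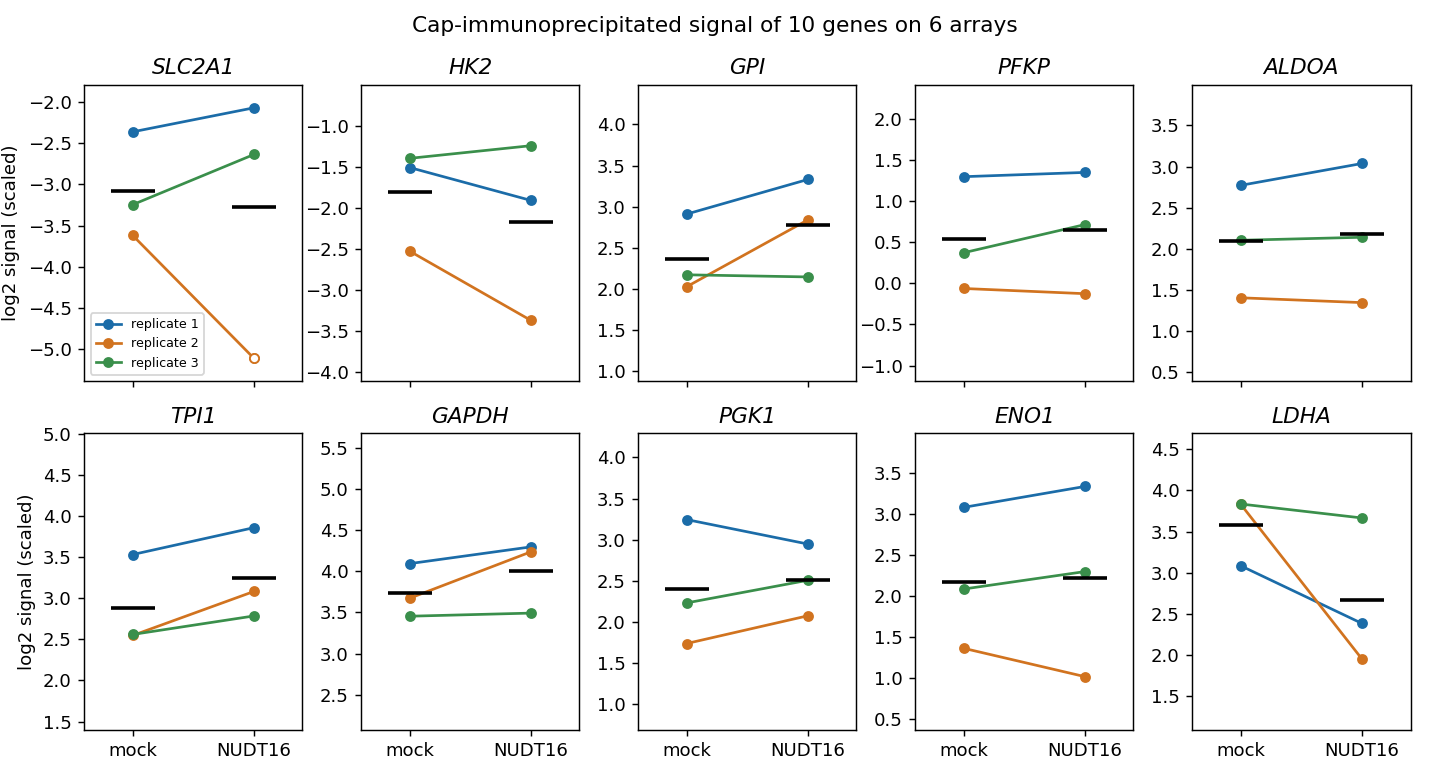
Scaled log2 signal of the brightest probe of each of the 10 genes (y axis, same span in every panel) in mock and NUDT16 arrays (x axis); lines join arrays of the same replicate number, bars are group means of 3 arrays and the open point is the 1 value not well above background. In every panel the groups overlap, and in 8 panels both replicate 1 arrays lie above both replicate 3 arrays, SLC2A1 at -2.36 and -2.07 against -3.25 and -2.64 for example.

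SLC2A1 and HK2 act first, at uptake and at the phosphorylation that traps glucose in the cell. The SLC2A1 probe A_23_P571 (chr1:43391874-43391933, minus strand) read -2.36, -3.62 and -3.25 on mock replicates 1 to 3 and -2.07, -5.11 and -2.64 on NUDT16 replicates 1 to 3. The NUDT16 group holds both the highest and the lowest value, and the lowest, on replicate 2, was not well above background. The difference was -0.20 (95% interval -1.96 to 1.56). It was -1.49 within pair 2 and 0.29 and 0.61 within pairs 1 and 3, and without NUDT16 replicate 2 it was 0.72, with the opposite sign. SLC2A1 is the only member whose brightest probe failed detection on an array, and it was tested because it was detected on all mock arrays. A second SLC2A1 probe, A_33_P3344801 (chr1:43396070-43396129, minus strand), was well above background on 4 arrays, 2 in each group, and was not tested.

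Hexokinase 2, the hexokinase isoform typical of growing tumour cells, was measured by A_32_P175739 (chr2:75120331-75120390). It read -1.51, -2.53 and -1.40 in mock and -1.91, -3.37 and -1.24 in NUDT16 arrays, with both replicate 2 arrays the lowest of their groups. The difference was -0.36 (95% interval -1.89 to 1.16), lower in 2 of 3 pairs, and 0.23 without NUDT16 replicate 2. The other HK2 probe, A_33_P3214670 (chr2:75118359-75118418), was well above background on 2 mock arrays and 1 NUDT16 array and was not tested.

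The next 4 enzymes turn the trapped sugar into triose phosphates. GPI interconverts glucose and fructose phosphates. Its probe A_24_P108451 (chr19:34891174-34891233) read 2.91, 2.03 and 2.17 in mock and 3.33, 2.84 and 2.15 in NUDT16 arrays. The difference of 0.40 (95% interval -0.94 to 1.74) was the largest positive one among the members in the fit on all arrays, and it was 0.12 without NUDT16 replicate 1, 0.23 without mock replicate 2 and 0.72 without NUDT16 replicate 3. It came from pairs 1 and 2 (0.42 and 0.81), with -0.03 in pair 3, and 20.6% of all genes tested had a difference as high or higher, 31.8% of those detected on all 6 arrays.

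PFKP is the platelet-type phosphofructokinase, an isoform of the enzyme that commits sugar to glycolysis. Its brighter probe A_23_P46928 (chr10:3178781-3178840) read 1.30, -0.06 and 0.37 in mock and 1.35, -0.13 and 0.71 in NUDT16 arrays. Replicates 1 and 2 differed little within their pairs (0.05 and -0.06) and replicate 3 by 0.34, and the group difference was 0.11 (95% interval -1.31 to 1.54). The second probe, A_33_P3413962 (chr10:3177970-3178029), gave 0.09. Once each probe was centred on its own mean, the pair differed by at most 0.28 on any array.

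ALDOA, the aldolase that cuts the 6-carbon sugar, read 2.77, 1.41 and 2.10 in mock and 3.04, 1.35 and 2.14 in NUDT16 arrays. Here too the replicates kept their order in both groups, and the difference was 0.08 (95% interval -1.37 to 1.53).

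TPI1, which interconverts the triose phosphates, read 3.53, 2.55 and 2.56 in mock and 3.86, 3.08 and 2.78 in NUDT16 arrays with A_32_P95739 (chr12:6979746-6979805). It was higher in 3 of 3 pairs, by 0.33, 0.54 and 0.22. The difference of 0.36 (95% interval -0.99 to 1.71) was not called (limma adjusted p 0.999), nor with the block (95% interval -0.36 to 1.09, limma adjusted p 0.579). Without NUDT16 replicate 1 it was 0.054, and without mock replicate 1 it was 0.69. The second probe, A_21_P0000534 (chr12:6979694-6979752), shares 7 positions with the first and is named for another transcript variant. It gave 0.37, and the centred probes differed by at most 0.09 on any array, so both probes report the same profile.

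GAPDH, PGK1 and ENO1 belong to the phase of the pathway that pays out energy. GAPDH, which oxidises the triose phosphate and is widely used as a reference gene, read 4.09, 3.67 and 3.45 in mock and 4.30, 4.24 and 3.49 in NUDT16 arrays. It had the narrowest range of the 10 members over the 6 arrays, 0.84, and was higher in 3 of 3 pairs, by 0.20, 0.56 and 0.04. The difference was 0.27 (95% interval -1.01 to 1.55), with 0.12 without NUDT16 replicate 1 and 0.53 without NUDT16 replicate 3. TPI1 and GAPDH are the 2 members higher in every pair (without scaling their group differences were -0.63 and -0.73, beside a median of -1.06 over all genes), against 17.4% of all genes tested and 27.8% of those detected on all 6 arrays.

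The 10 spots of the GAPDH probe show the spread between repeated spots within an array. Their SD within an array lay between 0.03 and 0.06 on the log2 scale, while the group SD of GAPDH between arrays was 0.32 in mock and 0.45 in NUDT16. PGK1, which makes the first ATP of the pathway, also has 10 spots (A_23_P125829, chrX:77381462-77381521), of which 8 were usable on NUDT16 replicate 3. Its spot SD was 0.03 to 0.04, against 0.77 and 0.44 between arrays. The other members have 1 spot a probe, so this measure does not exist for them.

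PGK1 read 3.24, 1.74 and 2.23 in mock and 2.95, 2.08 and 2.51 in NUDT16 arrays, with a difference of 0.11 (95% interval -1.27 to 1.48) and the sign of pair 1 (-0.30) opposite to that of pairs 2 and 3 (0.34 and 0.28). ENO1, the enolase that forms phosphoenolpyruvate, read 3.08, 1.36 and 2.08 in mock and 3.33, 1.02 and 2.30 in NUDT16 arrays. Its difference of 0.04 (95% interval -1.57 to 1.65) was the smallest of the 10, although its values spread over 2.31 between arrays. Leaving out mock replicate 2, mock replicate 3 or NUDT16 replicate 1 turned the ENO1 difference to -0.37, -0.005 and -0.52. The first and the last of these also turned PGK1 (-0.23 and -0.11), PFKP (-0.19 and -0.24) and ALDOA (-0.26 and -0.35).

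LDHA, which converts pyruvate to lactate, is the member with the largest difference, and the sign is negative. The probe A_23_P47565 read 3.08, 3.83 and 3.83 in mock and 2.38, 1.95 and 3.67 in NUDT16 arrays. Mock replicate 1 lies below NUDT16 replicate 3, so the groups overlap. The mock mean was 3.58 ± 0.43 (SD, n = 3) and the NUDT16 mean 2.67 ± 0.89 (SD, n = 3), a difference of -0.92 (95% interval -2.33 to 0.50, limma adjusted p 0.999). LDHA was lower in 3 of 3 pairs, with differences of -0.70, -1.88 and -0.17, as 25.8% of all genes were and 18.4% of those detected on all 6 arrays. With the block the interval was -1.89 to 0.05 (limma adjusted p 0.467). A difference of this size or lower was seen for 8.52% of all genes tested and 4.85% of those detected on all 6 arrays. Without NUDT16 replicate 2, the array that detected least, the difference was -0.56, and without NUDT16 replicate 3 it was -1.42. Within pairs 1 and 3 alone it was -0.44 (95% interval with the block -1.02 to 0.15, from the variance pooled over probes).

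The chromosome 9 probe named LDHA, whose sequence is given above, behaved alike. It read 1.03, 1.23 and 1.42 in mock and 0.25, -1.10 and 1.37 in NUDT16 arrays, a difference of -1.05 (95% interval -2.57 to 0.47) and lower in 3 of 3 pairs, with differences of -0.78, -2.33 and -0.05. As with the first probe, NUDT16 replicates 1 and 2 lie below all mock values. The mock SD was 0.20 for this probe and 0.43 for the first. Once centred, the LDHA probes differed by at most 0.62 on an array.

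**Figure D2:**
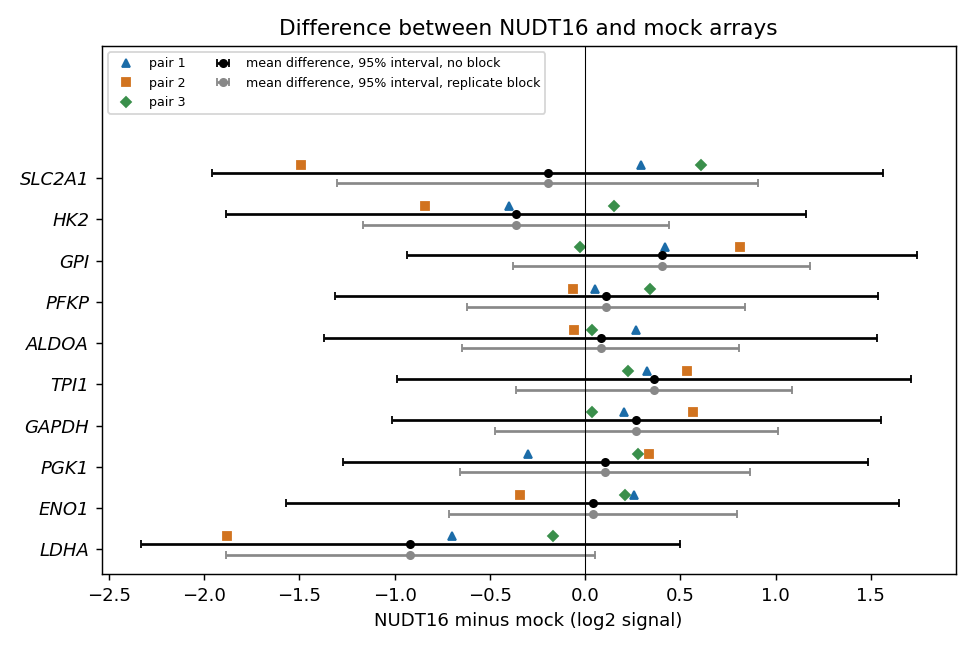
NUDT16 minus mock difference in log2 signal (x axis) of the 10 genes (y axis), as the mean with its 95% interval in limma without and with the replicate block, and within each same-numbered pair. Every interval includes 0, and LDHA, at -0.92, lies farthest from it.

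A ratio within an array does not depend on how arrays are scaled, so each member was also set against GAPDH. GAPDH is itself a member, and its own difference of 0.27 enters every ratio with the opposite sign. Its probe has 55% G and C and the LDHA probe 38.3%. The part of base composition in the ratio was not tested. The log2 ratio of LDHA to GAPDH was -1.01, 0.16 and 0.38 in mock and -1.91, -2.29 and 0.17 in NUDT16 arrays, with pair differences of -0.90, -2.45 and -0.21. The mean difference was -1.19, and -0.71 without NUDT16 replicate 2. The p value was 0.3 in a two-sided exact permutation test, where 0.1 is the smallest that 3 arrays against 3 allow. For the other 8 members the difference of this ratio lay between -0.63 (HK2) and 0.13 (GPI), with exact two-sided permutation p values from 0.6 to 1. These 9 ratios share the GAPDH values and were set up after the data were seen.

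What the members shared most was a pattern over the slides rather than between the groups. For 8 of 10 members, SLC2A1, GPI, PFKP, ALDOA, TPI1, GAPDH, PGK1 and ENO1, both replicate 1 arrays lay above both replicate 3 arrays. This held for 29.6% of all genes tested and 41.9% of those detected on all 6 arrays. The members' median was 0.75 higher on the replicate 1 slide than on the replicate 3 slide, beside -0.41 over all genes. HK2 and LDHA were the exceptions, with both replicate 1 arrays below both replicate 3 arrays, as for 52.7% of all genes and 39.1% of those detected on all 6 arrays. Slide and scan both follow the replicate number and cannot be told apart, and this comparison of slides was not planned at the start.

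**Figure D3:**
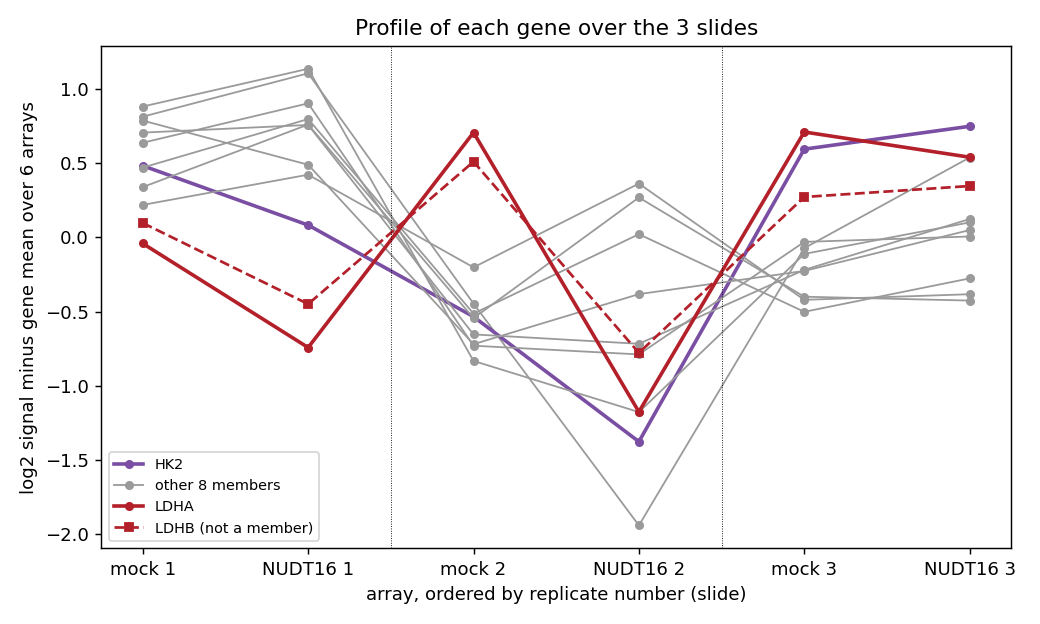
Log2 signal of each gene minus its mean over the 6 arrays (y axis), by array and ordered by slide (x axis), for the 10 members and for LDHB. The 8 grey profiles are above 0 on both replicate 1 arrays, while LDHA is at -0.04 and -0.74 there and at 0.71 and 0.54 on the replicate 3 arrays.

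The share of G and C in the probes moved with the group difference over all genes, and with the slide difference up to a share of 55%. Genes whose brightest probe had at most 40% G and C had a median NUDT16 minus mock difference of -0.30 and a median replicate 1 minus replicate 3 difference of -0.76. For probes above 50% and up to 55% the medians were 0.34 and 0.40, and above 55% they were 0.41 and -0.06. The LDHA probes have 38.3% and 41.7% G and C, and their group differences of -0.92 and -1.05 lie below the medians of their classes (-0.30 and -0.20, or -0.14 and -0.08 over genes detected on all 6 arrays). The GAPDH, ALDOA and ENO1 probes have 55%, and TPI1's brighter one 46.7%. The members did not all follow their class: SLC2A1, with 35%, was 0.73 higher on the replicate 1 slide, and GPI, with 43.3%, had the largest positive group difference, 0.40, where the class median was -0.20. The part of base composition in the LDHA difference was not tested.

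**Figure D4:**
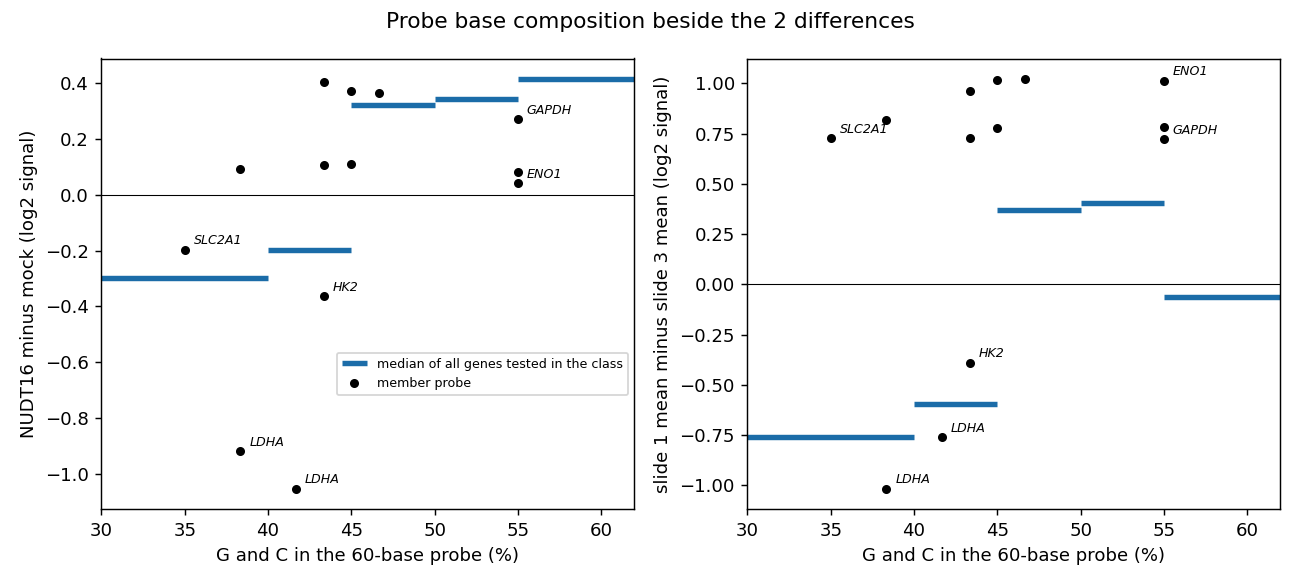
Share of G and C in each tested member probe (x axis, percent) against its NUDT16 minus mock difference (left) and its replicate 1 minus replicate 3 slide difference (right), both in log2 signal; blue bars are medians of all genes tested in 5 classes of that share. Both LDHA probes lie low in both panels, and SLC2A1 lies at 0.73 on the right where its class median is -0.76.

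The genes most like the members' mean profile were found by the root mean square distance of centred log2 profiles over the 6 arrays, among 5654 genes. The 5 nearest that are not members were TXLNA (0.04), BCL11A (0.06), ZFYVE21 (0.07), ACTB (0.09) and RRAGA (0.10), against a median distance of 0.71 over all genes ranked. BCL11A is a lymphoid transcription factor and ACTB is cytoplasmic actin. SLC2A1 was not ranked and is not in that mean, since it was not detected on every array, and its distance was 0.66. The other 9 members lay at 0.18 (PFKP), 0.19 (PGK1) and 0.23 (ALDOA) from their mean at the near end and at 0.55 (HK2) and 0.86 (LDHA) at the far end. The nearest, PFKP, ranked 93 of the 5654 genes and the farthest, LDHA, 3501, although each of these 9 is part of the mean. LDHA was thus farther from that mean than the median gene was.

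The rest of the pathway gave the same absence of calls. Of the other isozymes and glycolytic enzymes 11 could be tested: 0 were called, 6 were above 0 and 5 below, and the median was 0.15. LDHB, the partner subunit of lactate dehydrogenase, read 2.77, 3.18 and 2.94 in mock and 2.22, 1.89 and 3.02 in NUDT16 arrays. Like LDHA it was low on NUDT16 replicates 1 and 2, at a difference of -0.59 with pair values of -0.55, -1.29 and 0.07. Among those detected on all 6 arrays, the aldolase and enolase isozymes ALDOC (0.68) and ENO2 (0.54) were each higher in 3 of 3 pairs. So was the phosphofructokinase isozyme PFKL (0.48). This held for 27.8% of all genes detected on all 6 arrays.

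Among 6 transporters of glucose and lactate and their partner, 3 were above 0 and 3 below with a median of -0.16, which ranged from -1.15 to 0.55 over 19 other settings and was 0.31 over the 3 genes detected on all 6 arrays. BSG, the chaperone of the lactate transporters, was at 0.75, SLC16A3, a lactate exporter, at 0.31, and the glucose transporter SLC2A6 at -0.54. Of 8 regulators 2 were above 0 and 6 below (median -0.28, and 0.12 without NUDT16 replicate 2), with only TXNIP, which curbs glucose uptake, detected on all 6 arrays (-0.37). The other regulators were tested because they were detected on all mock arrays, and each missed detection on an array of the NUDT16 group.

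Genes for the entry of pyruvate into mitochondria and its oxidation had 0 of 7 above 0, with a median of -0.44. Of these, 3 were tested because they were detected on all mock arrays but missed detection on an array of the NUDT16 group, and over the 4 detected on all 6 arrays the median was -0.40. Within pair 3, 4 of the 7 were above 0, and without NUDT16 replicate 2 the median was -0.27. They include PDHB, a subunit of pyruvate dehydrogenase, at -0.44, and the mitochondrial pyruvate carrier subunits BRP44L (MPC1) at -0.48 and BRP44 (MPC2) at -0.37. Their brightest probes have 35% to 45% G and C, classes whose medians over all genes were -0.30 and -0.20. The pentose phosphate pathway had 3 of 6 above 0 (median -0.05), with PGLS at 0.46, RPIA at -0.30 and PGD at -0.12. The tricarboxylic acid cycle had 5 of 15 above 0 (median -0.34), with FH at -0.57, IDH3G at 0.55 and SUCLG1 at -0.37. Of its 11 genes detected on all 6 arrays 5 were above 0, with a median of -0.02, and without NUDT16 replicate 2 the median of the list was 0.13. Its other genes were all below 0. In all 6 lists, genes not detected on all 6 arrays were tested because they were detected on every mock array. In none of the 6 lists was a gene called in limma, with or without the block, and none had an unadjusted p under 0.05 in limma without it. With it, PDHX, SUCLG2 and SUCLA2 did, all lower in NUDT16 and none detected on NUDT16 replicate 2, against 8.72% of all genes.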

How the data were processed

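The deposited scanner files give the brightness of each spot as linear intensity and, per the file headers, come from Feature Extraction 10.7.3.1 on hg19, with background subtracted and detrended within the array and surrogate values for spots not above background. The authors' own value table holds log2 values, made in a way not given in the sources used here beyond the tool limma in the submitters' processing notes. It ranks spots as median minus background intensity does (Spearman's rho 1) and served as an alternative.

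Control spots and outlier spots were left out and spots of one probe averaged. A probe was tested if well above background on every array of at least 1 group (limma 3.58.1, R 4.3.3, no block, two-sided, Benjamini-Hochberg at 0.05), and the brightest probe stood for a gene. The scaling percentile was taken over probes detected on all arrays because over all probes it falls among background spots on NUDT16 replicate 2. Same-numbered arrays share a slide, and their deviations from group means correlated at 0.84, 0.39 and 0.77 over 17765 probes, so the numbers pair the arrays. Intervals given without mention of the block come from the fit without it, which leaves the spread between slides in the error. Genes of the pathway lists were named by size of difference among those detected on all 6 arrays, up to 3 a list. PFKL, PDHX, SUCLG2 and SUCLA2 were named outside this rule. The members, lists and settings were chosen with earlier results of these data known. The procedure was tested on simulated data. For the fit without the block these held no spread shared by the arrays of a slide, unlike the real arrays. Of 15 member probes, 13 matched a current RefSeq accession of the same symbol (GRCh38.p14, names only).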

Additional observations from a re-analysis of the deposited data

How the results depend on the processing

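Of 189 values of single members under other settings, 164 kept their sign, 25 reversed and 0 passed the threshold. The count of kept signs includes settings that could not reverse one. Another filter, the block on all arrays or another prior leaves a gene's difference as it is. The fits on replicates 1 and 3 with and without the block also share their differences. LDHA stayed negative in all 19, from -1.91 to -0.44. Without scaling, where the median of all genes was -1.06, the members' median was -0.90 and GPI (-0.59), PFKP (-0.89), ALDOA (-0.92), TPI1 (-0.63), GAPDH (-0.73), PGK1 (-0.89) and ENO1 (-0.96) reversed. With normexp, where the median of all genes was 0.46, SLC2A1 (0.74) and HK2 (0.080) reversed. On replicates 1 and 3 alone, with or without the replicate block, SLC2A1 (0.45) and PGK1 (-0.011) reversed. Leaving out 1 array gave -0.80 to 0.72 for SLC2A1, -0.83 to 0.23 for HK2, 0.12 to 0.72 for GPI, 0.054 to 0.69 for TPI1, 0.12 to 0.53 for GAPDH, -1.42 to -0.56 for LDHA, -0.24 to 0.50 for PFKP, -0.35 to 0.50 for ALDOA, -0.23 to 0.52 for PGK1, -0.52 to 0.64 for ENO1 and -0.30 to 0.47 for the members' median. The 1 called probe became 0 without scaling, with normexp, with no filter, with the authors' table and on replicates 1 and 3 without the block. It also became 0 when detection on all 6 arrays was required. That filter removes the called probe before testing, since it was well above background on 0 mock arrays. With the replicate block and replicates 1 and 3 alone the count became 613, 3.45% of probes, with 0 members among them. That fit rests on a variance pooled over probes. The range was 0 to 1 when 1 array was left out. The replicate block on all arrays left 1 probe called and changed no call. The fit on replicates 1 and 3 without the block and the ratios to GAPDH were added after seeing the data. The comparison of the replicate 1 and 3 slides and the classes of G and C were not planned at the start either. The causes were not tested.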
